A study of Mus musculus with 36 samples.

Results

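The 6 E10.5 libraries of the study compared telencephalic vesicles that lacked a functional Chd8 gene in the neuroepithelium with vesicles that kept it. They are 6 of the 18 libraries sequenced, and every gene of the E10.5 count table that passed a filter on low counts was tested, 18435 of 46603 genes. The cKO embryos carried sox1-Cre and Chd8 f/f, and the Ctrl embryos are labelled as a combination of Chd8 f/f and Chd8 f/+ with no Cre named, so that both groups carried floxed alleles on a C57Bl/6J background. The study's text names its Ctrl embryos as Chd8 flox/flox alone, which differs from the label, and the labels do not say which Ctrl library had which genotype. The loxP sites flank exon 3, and its removal shifts the reading frame. The labels call the tissue cortex and the study calls it telencephalic vesicles. The Sox1 driver is active in early neural progenitors, so that vessels and mesenchyme in the dissected tissue should keep their Chd8 gene, and carriage of Cre cannot be told apart from loss of Chd8. Each group had 3 libraries, each from a pool of a pair of embryos of mixed sex, and the p-values below measure the spread between these pools. The study made the comparison to look for possible causes of the failed growth of the telencephalon in cKO embryos, at the stage when it begins.

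Chd8 encodes an ATP-dependent chromatin remodeller that binds the promoters of many active genes and represses targets of the tumour suppressor p53. At this stage the wall of the vesicles is a proliferating neuroepithelium, patterned by FGF signals from its anterior ridge, by WNT and BMP signals from its dorsal midline and by Sonic hedgehog from below, and the first neurons have just been born. Dividing neuroepithelial cells can make their own cholesterol. The pathway is switched on by SREBP2, a transcription factor released from the endoplasmic reticulum when sterols run low.

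Chd8 itself was measured at 160.0, 168 and 184 CPM (read counts scaled to library size) in the Ctrl libraries and at 120.5, 125 and 116 in the cKO libraries, and the groups did not overlap. It fell to 0.707 of the control level (log2 fold change -0.50 ± 0.065 (SE), adjusted p = 0.00109). The floxed exon is one of the many exons counted (chr14:52198151-52257723, GRCm38), so that this value also reads transcript that the deletion leaves in place. Sox1, the gene that names the Cre driver, fell as well, from 96.0, 108 and 101 to 60.8, 64.8 and 71.1 CPM (log2 fold change -0.63 ± 0.072 (SE), adjusted p = 0.000537). No Cre is named for Ctrl, so that the driver's part in the fall of Sox1 cannot be told apart from loss of Chd8. Trp53, which encodes p53, stood at 185, 224 and 205 CPM in Ctrl and 227, 216 and 210.3 in cKO and was not called (adjusted p = 0.473).

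Total counts were 49632937 to 55190000 per Ctrl library and 59283998 to 68488879 per cKO library, so that each cKO library was deeper than each Ctrl library. When the 1000 genes of largest variance were decomposed, component 1 (39.2% of variance) separated the groups and component 2 (28.9%) set Ctrl replicate 2 apart. Levels of genes of early neurons differed between libraries within both groups. Tbr1, a transcription factor of the first cortical neurons, stood at 11.8, 1.35 and 9.23 CPM in Ctrl and 4.52, 15.2 and 11.3 in cKO, and Dcx, a microtubule protein of migrating neurons, at 23.8, 6.87 and 21.1 and 8.87, 25.1 and 18.4, lowest in Ctrl replicate 2 and cKO replicate 1. Mitochondrial DNA supplied 0.765 to 0.966% of counts in Ctrl, 1.02% in cKO replicate 1, 1.91% in replicate 2 and 1.84% in replicate 3.

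Of the 18435 genes tested, 2110 (11.4%) were differentially expressed at an adjusted p under 0.05, 1060 higher in cKO (5.75%) and 1050 lower (5.7%). The groups did not overlap for 2107 of the called genes and for 32.2% of all genes tested, so that a lack of overlap adds little to a call. Most differences were small. The median log2 fold change was 0.36 among genes called higher, -0.39 among genes called lower and -0.0019 over all genes tested. A change of at least 2-fold was found for 96 genes called higher and 45 called lower, and 21 genes were at least 4-fold higher while 0 were at least 4-fold lower. The number called rested on few libraries. It was 951 without Ctrl replicate 3, 826 without cKO replicate 3 and 538 without cKO replicate 2, and 535 of those 538 were also called with all libraries, in the same direction. Members of the lists below called in either direction numbered 241, against 143 without Ctrl replicate 3, 126 without cKO replicate 3 and 95 without cKO replicate 2, so that the small counts of single lists rest on these libraries too. Counts in the lists are to be read against the shares of 5.75% and 5.7% in all genes (bar plot of lists).

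**Figure D1:**
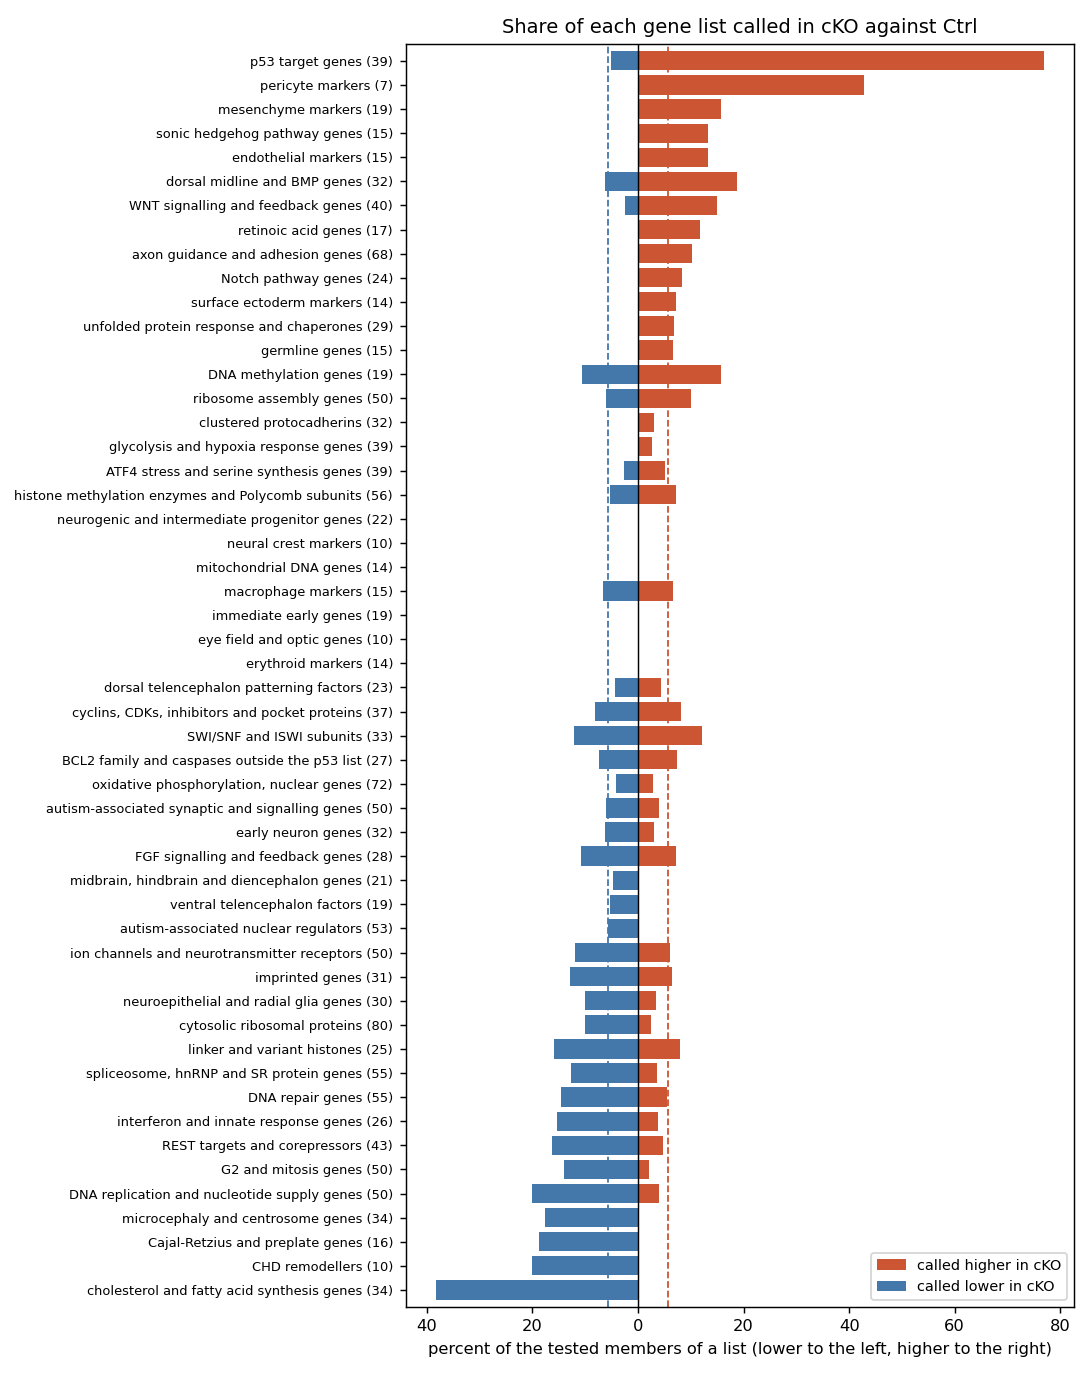
Share of the tested members of each of 52 gene lists that were called higher (right, red) or lower (left, blue) in cKO, in percent, with the number tested in brackets. The dashed lines mark the shares among all 18435 genes tested, 5.75% higher and 5.7% lower. The p53 target genes reach furthest to the right and the cholesterol and fatty acid synthesis genes furthest to the left.

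The list with the largest share of called rises held the p53 target genes, of which 30 of 39 rose and 2 fell, with a median log2 fold change of 0.81. Cdkn1a, the cell cycle inhibitor p21, rose from 7.74, 3.56 and 6.75 to 70.3, 100.3 and 100.2 CPM, 14.96-fold (log2 fold change 3.90 ± 0.33 (SE), adjusted p = 0.00511). Phlda3, an inhibitor of AKT, had the smallest adjusted p of the list, with 9.42, 8.402 and 7.12 CPM in Ctrl and 44.5, 47.2 and 46.4 in cKO (log2 fold change 2.47 ± 0.10 (SE), adjusted p = 6.28e-07). The nuclease gene Aen rose with a log2 fold change of 1.03 ± 0.057. The death genes were among those called. Pmaip1 (Noxa) had a log2 fold change of 1.40 ± 0.13 and Bbc3 (Puma) one of 0.93 ± 0.089, against 0.32 ± 0.071 for Bax and 0.47 ± 0.055 for Mdm2, the ligase that degrades p53. Ddb2 and Sesn1, for damage recognition and stress defence, fell, with log2 fold changes of -0.46 and -0.30. Outside the p53 list, 1030 genes were called higher and 1048 lower, and the rest of the results concern these. They may include p53 targets that the list does not hold.

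The list with the largest share of falls among the 52 held the genes of cholesterol and fatty acid synthesis. Of its 34 members, all tested, 13 fell and 0 rose, with a median log2 fold change of -0.19. All but one of the 13 act in the sterol branch or its control. Hmgcs1, which makes HMG-CoA at the entry to the mevalonate pathway, stood at 631, 719 and 646 CPM in Ctrl and 446, 466 and 500.1 in cKO (log2 fold change -0.50 ± 0.072 (SE), adjusted p = 0.00205). Each cKO library was below each Ctrl library. Msmo1, a C4-methylsterol oxidase of the late pathway, fell from 166, 172 and 149 to 102, 110.0 and 122 CPM (log2 fold change -0.54 ± 0.078 (SE), adjusted p = 0.00217), and Idi1, the isomerase of isopentenyl diphosphate, from 292, 319.9 and 287 to 218, 226 and 240.5 (log2 fold change -0.40 ± 0.064 (SE), adjusted p = 0.00392).

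The promoters of these genes are shown because the genes fell together. RefSeq sequences were at hand for 24 of the 34 list members, too few to give the share of the whole list that holds a motif. Of these, 4 are printed, each the 150 bases before the start annotated by RefSeq, on the sense strand (GRCm38.p6). Capitals mark matches on either strand to CCAAT, the box bound by NF-Y. In Hmgcs1 alone they also mark TCACNCCAC, a sterol regulatory element of the kind bound by SREBP proteins. The regions are chr13:119690201-119690350 (plus strand) for Hmgcs1, chr13:8885456-8885605 (plus) for Idi1, chr8:64733579-64733728 (minus) for Msmo1 and chrX:72918371-72918520 (plus) for Nsdhl. The RefSeq start can differ from that of the counted gene model: the stretch of Msmo1 lies within the counted gene (chr8:64718139-64733792) and that of Idi1 overlaps its beginning (chr13:8885501-8892451).
Hmgcs1: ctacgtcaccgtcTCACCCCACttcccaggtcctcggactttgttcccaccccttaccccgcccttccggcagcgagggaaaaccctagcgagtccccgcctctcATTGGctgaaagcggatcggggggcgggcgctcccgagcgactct
Idi1: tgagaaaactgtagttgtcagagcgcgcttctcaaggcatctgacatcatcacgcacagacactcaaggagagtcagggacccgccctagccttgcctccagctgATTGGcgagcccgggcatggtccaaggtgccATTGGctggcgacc
Msmo1: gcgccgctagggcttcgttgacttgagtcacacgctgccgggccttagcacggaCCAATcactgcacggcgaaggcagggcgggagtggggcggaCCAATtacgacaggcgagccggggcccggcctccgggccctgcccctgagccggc
Nsdhl: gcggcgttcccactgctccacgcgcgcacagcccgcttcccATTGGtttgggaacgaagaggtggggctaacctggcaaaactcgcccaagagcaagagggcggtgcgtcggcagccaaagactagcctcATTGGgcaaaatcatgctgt

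Over the 250 bases before the start, CCAAT in either orientation was found in 37.5% of all 27025 promoters of that table and TCACNCCAC in 1.22%. For the promoters of genes tested here the share with CCAAT was 39.9%. Among the matched list members, 9 of 10 called lower and 11 of 14 not called held CCAAT, so that most held the box whether called or not. These matches describe the sequences and were not tested for binding.

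The falls included enzymes along the sterol pathway, but 21 of the 34 list members were not called and 9 stood above 0. The sterol enzyme genes Cyp51, Dhcr7, Ebp, Hsd17b7, Mvd and Mvk were among those not called. The log2 fold change was -0.36 for Pmvk (phosphomevalonate kinase), -0.28 for Fdps (farnesyl diphosphate synthase), -0.20 for Fdft1 (squalene synthase), -0.36 for Lss (lanosterol synthase), -0.37 for Tm7sf2 (a sterol C14 reductase), -0.32 for Nsdhl (a sterol dehydrogenase) and -0.39 for Sc5d (a sterol desaturase). Insig1, which holds SREBP in the endoplasmic reticulum and is itself a target of SREBP, fell from 104, 111 and 103 to 82.7, 84.5 and 88.4 CPM (log2 fold change -0.32 ± 0.058 (SE), adjusted p = 0.00716), and Stard4, a sterol carrier, had a log2 fold change of -0.37. The remaining called member, Elovl6, elongates fatty acids (-0.31). Sqle, the squalene epoxidase, had a log2 fold change of -0.22 ± 0.068 and missed the threshold (adjusted p = 0.0647). Srebf2, which encodes SREBP2, stood at 0.16 ± 0.069 (adjusted p = 0.171) and Fasn, the fatty acid synthase, at 0.23 ± 0.096 (adjusted p = 0.149), and neither was called. The list had 17 members called lower with offsets for gene length and GC content, and 8 without cKO replicate 3 and 5 without cKO replicate 2, with a median between -0.21 and -0.16 in each of 15 alternative analyses.

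**Figure D2:**
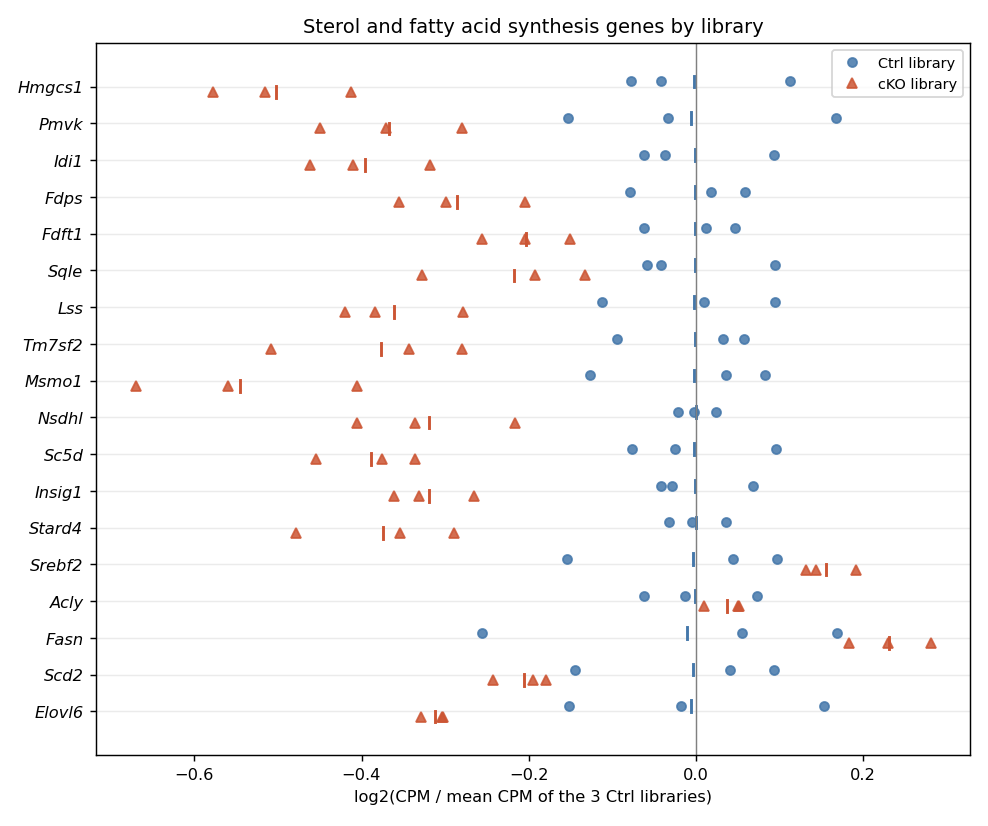
Levels of 18 sterol and fatty acid synthesis genes by library, as log2 of CPM over the mean CPM of the 3 Ctrl libraries; circles are Ctrl libraries, triangles cKO libraries, and the vertical ticks are the group means of these log2 values. For Hmgcs1, Idi1, Msmo1 and Insig1 the 3 cKO libraries lie to the left of the 3 Ctrl libraries, while those of Acly overlap.

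Genes of the signalling centres changed in both directions, in counts to be read against 5.75% higher and 5.7% lower in all genes. Fgf8, the ligand of the anterior neural ridge that promotes telencephalic growth, was measured at 14.5, 14.97 and 12.6 CPM in Ctrl and 8.57, 9.20 and 10.4 in cKO and fell (log2 fold change -0.58 ± 0.10 (SE), adjusted p = 0.0069). Of 28 genes of FGF signalling and feedback, 3 fell and 2 rose, against 1 and 0 without cKO replicate 2, and against 2 and 5 without Ctrl replicate 2. Fgfbp3, a secreted FGF carrier, fell (-0.41), and so did Spred3, a feedback inhibitor (-0.29), while Etv4, a transcription factor induced by FGF, rose (0.39) with Flrt1, an FGF receptor partner (0.54). Other ligands of the ridge were not called, with log2 fold changes of -0.18 ± 0.13 for Fgf17 and 0.18 ± 0.25 for Fgf15.

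Dorsal midline and BMP genes leaned upward. Of 32 tested, 6 rose and 2 fell, with a median log2 fold change of 0.21, and 3 rose without Ctrl replicate 1, cKO replicate 2 or cKO replicate 3. Wnt8b, a ligand of the cortical hem and dorsomedial wall, rose from 151, 158 and 179 to 223, 231 and 269 CPM (log2 fold change 0.57 ± 0.085 (SE), adjusted p = 0.003), and Bmp7, a ligand of the roof plate, from 51.1, 65.0 and 58.1 to 87.0, 86.2 and 79.95 (log2 fold change 0.54 ± 0.083 (SE), adjusted p = 0.00312). The groups did not overlap for either gene, as for nearly all called genes. The roof plate transcription factors Lmx1a and Lmx1b rose with log2 fold changes of 0.36 and 0.53, Bmp4 with one of 0.36 and Zic2, a midline zinc finger gene, with one of 0.35. The members that fell were Id4, a BMP-induced inhibitor of differentiation (-0.46), and Chrd, which encodes the BMP antagonist Chordin (-0.42). Bmp5 (0.30 ± 0.089, adjusted p = 0.0533) and Bmp6 (0.34 ± 0.12, adjusted p = 0.0816) missed the threshold. Summed CPM of the mesenchyme markers was 1012 to 1153 in Ctrl and 1342 to 1465 in cKO, and mesenchyme makes BMP ligands too. Its part in these rises was not tested, and in bulk tissue a change in the number of cells of a type cannot be told apart from a change of RNA per cell.

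WNT and other signals followed, with small counts to be read against the same shares of 5.75% and 5.7%. Of 40 WNT genes, 6 rose and 1 fell. With length and GC offsets 3 rose and 3 fell, and only 1 rose without Ctrl replicate 3, cKO replicate 1 or cKO replicate 2. The one that fell was Wnt7a, a ligand of the neuroepithelium, at 20.9, 18.1 and 20.1 CPM in Ctrl and 15.2, 13.4 and 12.8 in cKO (log2 fold change -0.51 ± 0.094 (SE), adjusted p = 0.00731), while its close relative Wnt7b rose (0.33), a call lost with length and GC offsets. The others that rose were the receptor genes Ror2 (0.29) and Lrp5 (0.35), the ligand Wnt9a (0.35), the repressor Tcf7l1 (0.36) and the feedback gene Nkd2 (0.33). In the hedgehog list, 2 of 15 genes rose and 0 fell: Disp1, which releases the ligand (0.42), and Smo, its signal transducer (0.25). In the Notch list, 2 of 24 rose, the receptor gene Notch3 (0.37), also a pericyte gene, and the ligand gene Jag1 (0.35), and 0 fell, while 4 fell without Ctrl replicate 2 and with Xist level as a covariate. Of 17 retinoic acid genes 2 rose and 0 fell. Cyp26b1, an enzyme that degrades retinoic acid, rose from 0.975, 0.577 and 1.07 to 1.70, 2.20 and 1.95 CPM (log2 fold change 1.149 ± 0.22 (SE), adjusted p = 0.00941), and Rxra, a nuclear receptor, rose with a log2 fold change of 0.35. All 6 values of Cyp26b1 are low, and its call was lost without cKO replicate 2, as were those of Wnt7a, Disp1, Rxra and Jag1.

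**Figure D3:**
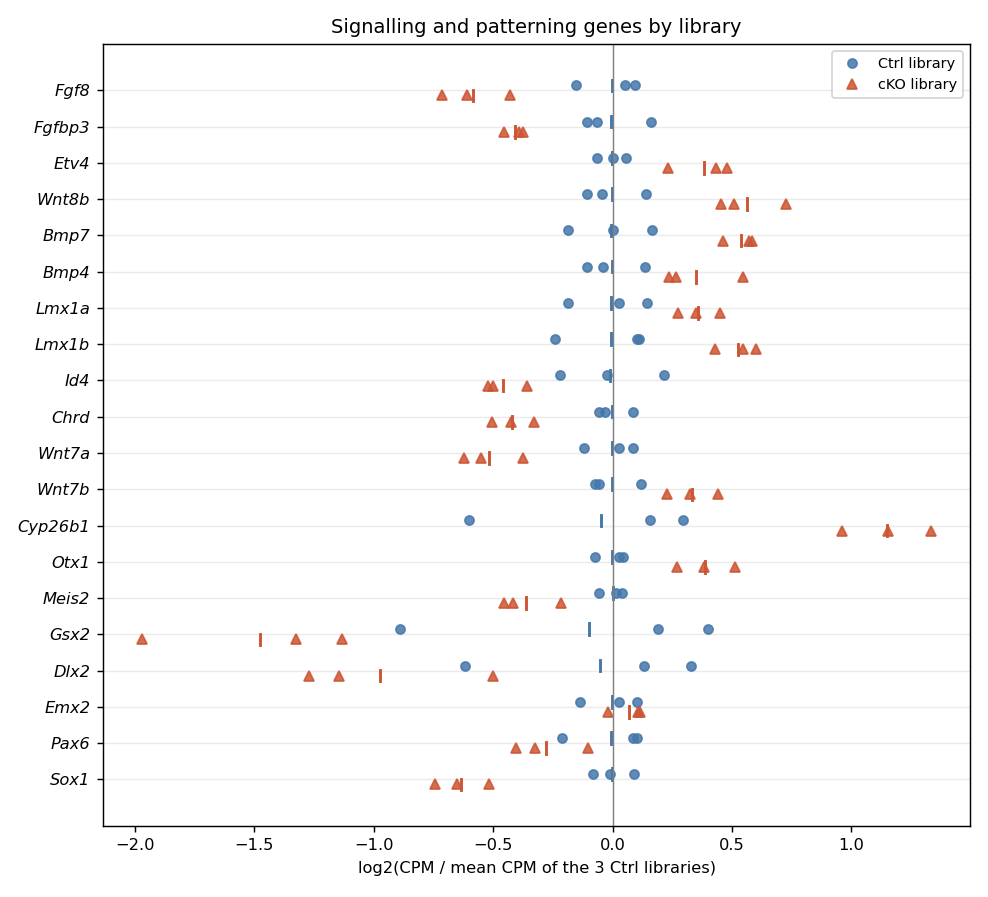
Levels of 20 signalling and patterning genes by library, as log2 of CPM over the mean CPM of the 3 Ctrl libraries; circles are Ctrl libraries, triangles cKO libraries, and the vertical ticks are the group means of these log2 values. Fgf8 and Sox1 lie to the left in all 3 cKO libraries and Wnt8b and Bmp7 to the right, while Emx2 and Pax6 overlap between groups.

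Few factors of regional identity were called. The dorsal factors Emx1 (0.34 ± 0.16), Emx2 (0.068 ± 0.070), Pax6 (-0.27 ± 0.10) and Lhx2 (0.012 ± 0.093) were not called, with adjusted p between 0.114 and 0.952. Of 23 dorsal factors, Otx1 rose (log2 fold change 0.39 ± 0.069 (SE), adjusted p = 0.00611) and Meis2 fell (log2 fold change -0.36 ± 0.072 (SE), adjusted p = 0.0109). The 19 ventral factors had a median log2 fold change of -0.27, with 0 called higher and 1 called lower. That gene, Gsx2, which specifies the lateral ganglionic eminence, stood at 4.97, 2.03 and 4.29 CPM in Ctrl and 0.961, 1.72 and 1.4996 in cKO (log2 fold change -1.43 ± 0.36 (SE), adjusted p = 0.0491), close between Ctrl replicate 2 and the cKO libraries, and its call was lost in 9 of the 15 alternatives. Nkx2-1, a marker of the medial ganglionic eminence, stood at 0.287, 0.0996 and 0.877 CPM in Ctrl and 0.219, 1.37 and 1.04 in cKO, and Shh did not pass the filter on low counts. Pax8, a gene of the midbrain and hindbrain border, was the only called member of 21 genes of more posterior brain and fell from 0.764, 1.41 and 0.716 to 0.354, 0.362 and 0.223 CPM (log2 fold change -1.62 ± 0.32 (SE), adjusted p = 0.0108). Of 10 genes of the eye field, 0 were called.

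Genes of the neuroepithelium and its neurons were called in both directions. Of 30 neuroepithelial and radial glia genes, 3 fell and 1 rose, with a median log2 fold change of 0.0081. Beside Sox1, Pou3f4, a POU factor (-0.67), and Prom1, a membrane protein of neural progenitors (-0.25), fell, and Mfge8, a secreted glycoprotein, rose (0.49). For Sox1 the Cre driver cannot be told apart from loss of Chd8. Sox2 (0.079 ± 0.053) and Nes (0.12 ± 0.068) were not called. Of 22 neurogenic and intermediate progenitor genes 0 were called. Over the alternatives 0 to 7 of them were called lower and 0 higher, with a median from -0.37 to 0.14. Eomes stood at 41.5, 8.96 and 38.8 CPM in Ctrl and 19.2, 38.8 and 34.6 in cKO and Neurog2 at 28.3, 8.66 and 21.9 and 15.3, 19.02 and 17.8, a wider spread within the groups than between them. Hes5, the Notch effector, stood at -0.27 ± 0.11 (adjusted p = 0.135). Among 32 early neuron genes, Stmn1 (-0.27) and Snap25 (-0.67) fell and Crmp1 rose (0.24), while Dcx and Tubb3 had log2 fold changes of 0.016 ± 0.64 and -0.12 ± 0.29. Of 16 genes of Cajal-Retzius cells and the preplate, 3 fell and 0 rose, but 11 stood above 0 and the median was 0.13, and 1 fell without Ctrl replicate 1 or 3 or cKO replicate 1 or 2. Those that fell were Cacna2d2, a calcium channel subunit (-0.46), Ndnf, a secreted factor (-0.44), and Cxcr4, a chemokine receptor (-0.33).

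Genes of DNA replication fell more often than they rose. Of 50 tested, 10 fell and 2 rose, with a median log2 fold change of -0.027. Gmnn, which encodes Geminin and blocks a second firing of origins, was measured at 106, 97.1 and 94.9 CPM in Ctrl and 71.7, 65.1 and 66.9 in cKO (log2 fold change -0.55 ± 0.065 (SE), adjusted p = 0.000623), without overlap. Pole2, a subunit of polymerase epsilon, fell (-0.46), as did the helicase component Gins1 (-0.40), the origin kinase Cdc7 (-0.37), Prim1 of primase (-0.26) and the nucleotide enzymes Tk1 (-0.37) and Rrm1 (-0.29). The members that rose were Pold2 (0.34) and Pold1 (0.21), both of polymerase delta. Of 50 genes of G2 and mitosis, 7 fell and 1 rose, with a median of -0.10, among them the kinesins Kif20b (-0.27) and Kif11 (-0.21), the kinetochore gene Nuf2 (-0.31) and Cks2, a partner of CDKs (-0.35). Mybl2, a transcription factor of this phase, rose (0.24). Mki67, a marker of cycling cells, stood at 0.085 ± 0.066 (adjusted p = 0.445). The numbers that fell were 3 for replication and 0 for mitosis without cKO replicate 2, 4 and 1 without cKO replicate 3, and 7 and 3 without Ctrl replicate 3.

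Of 34 microcephaly and centrosome genes 6 fell and 0 rose. Cenpj, which sets centriole length, was first by adjusted p, at 56.9, 53.8 and 53.4 CPM in Ctrl and 43.0, 43.2 and 40.01 in cKO (log2 fold change -0.38 ± 0.062 (SE), adjusted p = 0.00404). The others included Wdr62, a spindle pole protein (-0.34), and the centriole genes Sass6 (-0.27) and Plk4 (-0.20), and without cKO replicate 2 or 3 or Ctrl replicate 3 only 1 member of the list was called lower. Among cyclins, CDKs and their inhibitors, 3 of 37 rose and 3 fell, against 5.75% and 5.7% of all genes. Cdkn1b, the inhibitor p27, moved opposite to Cdkn1a, from 70.6, 65.7 and 71.5 to 42.6, 47.9 and 46.0 CPM (log2 fold change -0.61 ± 0.065 (SE), adjusted p = 0.000392). Ccnd3 rose (0.33), and Ccnd1 stood at -0.00057 ± 0.075. Of 55 DNA repair genes 8 fell and 3 rose, against 1 and 1 without cKO replicate 2 and 2 and 1 without cKO replicate 3 or Ctrl replicate 3. Xrcc4, a factor of end joining, rose from 6.98, 5.77 and 6.46 to 10.59, 12.3 and 12.7 CPM (log2 fold change 0.89 ± 0.11 (SE), adjusted p = 0.000829), and Timeless, a component of the replication fork (-0.37), and Fancl, a ubiquitin ligase of crosslink repair (-0.41), fell.

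Linker histone genes were among those that fell. Of 25 linker and variant histone genes, 4 fell and 2 rose, and the median log2 fold change was -0.32. H1f0, the replacement linker histone, fell from 451, 371 and 433 to 293, 308 and 330.4 CPM (log2 fold change -0.43 ± 0.079 (SE), adjusted p = 0.00742). Hist1h1c stood at 5.31, 5.38 and 7.68 CPM in Ctrl and 3.88, 3.56 and 3.52 in cKO (log2 fold change -0.75 ± 0.15 (SE), adjusted p = 0.0116), and Hist1h1e at 1.147, 1.53 and 2.38 and 0.877, 0.756 and 0.906 (log2 fold change -0.997 ± 0.25 (SE), adjusted p = 0.03). The other somatic members of the cluster were lower in mean but not called, Hist1h1a at -1.16 ± 0.44, Hist1h1b at -0.80 ± 0.49 and Hist1h1d at -0.95 ± 0.33. Clustered histone transcripts mostly lack a poly(A) tail, and these mRNA libraries read only a part of them. The variants H2afj (0.55) and H2afy2 (0.21) rose, and Hist2h2be fell (-0.34). The number that fell was 2 without Ctrl replicate 3 or cKO replicate 3 and 1 without cKO replicate 2, where the call of Hist1h1c was lost.

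The promoters of the called cluster members share the layout of their family. The 150 bases before the start (GRCm38.p6) are chr13:23738657-23738806 (plus strand) for Hist1h1c and chr13:23622559-23622708 (minus) for Hist1h1e, with capitals for AAACACA, the box of linker histone promoters, and for CCAAT, searched on both strands.
Hist1h1c: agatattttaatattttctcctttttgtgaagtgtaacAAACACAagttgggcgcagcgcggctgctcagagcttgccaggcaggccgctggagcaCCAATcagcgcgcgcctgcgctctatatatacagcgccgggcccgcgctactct
Hist1h1e: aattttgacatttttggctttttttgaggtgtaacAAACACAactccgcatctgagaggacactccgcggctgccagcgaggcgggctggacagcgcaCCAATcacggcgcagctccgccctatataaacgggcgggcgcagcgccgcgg

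Of the 5 somatic genes of the cluster, 4 held AAACACA and 5 held CCAAT in the 250 bases before the start, against 7.204% and 37.5% of all promoters of the table, a description that names no cause.

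Chromatin regulators were called in both directions, in small counts to be read against 5.75% higher and 5.7% lower in all genes. Of the 10 CHD genes 2 fell and 0 rose. Beside Chd8, this was Chd3, a remodeller of the NuRD complex, which stood at 203, 201 and 230.3 CPM in Ctrl and 161, 169.8 and 177 in cKO (log2 fold change -0.32 ± 0.068 (SE), adjusted p = 0.0135), and Chd7, a partner of Chd8, stood at 0.13 ± 0.087 (adjusted p = 0.381). Of 33 SWI/SNF and ISWI subunits 4 rose and 4 fell, against 1 and 1 without Ctrl replicate 3. Smarca4, the ATPase Brg1, rose from 354, 419 and 399 to 526, 559 and 547 CPM (log2 fold change 0.48 ± 0.071 (SE), adjusted p = 0.00251), while Brd9 (-0.42), Baz2b (-0.31) and Smarca1 (-0.38) fell. Of 56 histone methylation and Polycomb genes 4 rose and 3 fell, shares near those of all genes. Phf19, which guides Polycomb repressive complex 2 to methylated histone H3, fell from 5.39, 4.62 and 5.76 to 2.56, 1.86 and 1.87 CPM, to 0.398 of Ctrl (log2 fold change -1.33 ± 0.16 (SE), adjusted p = 0.000608), while Ezh2 (-0.11 ± 0.060), Eed (-0.014 ± 0.057) and Suz12 (-0.12 ± 0.054), the core of that complex, were not called. Ring1 of the first Polycomb complex fell (-0.30), and the demethylase genes Kdm4a (0.31) and Kdm4b (0.29) rose. Among 19 DNA methylation genes 3 rose and 2 fell, with Dnmt3a, a de novo methyltransferase, lower (log2 fold change -0.26 ± 0.061 (SE), adjusted p = 0.0205) and Tdg, a DNA glycosylase (0.20), and Mbd3 (0.24) higher. Of 15 germline genes tested, out of 39 in the list, Zcwpw1 alone was called and rose (log2 fold change 0.73 ± 0.12 (SE), adjusted p = 0.00499).

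Of 31 imprinted genes 4 fell and 2 rose. Maternally expressed noncoding genes of the Dlk1 and Meg3 domain on chromosome 12 fell together. Rian stood at 717, 777 and 786 CPM in Ctrl and 563, 482 and 525 in cKO (log2 fold change -0.54 ± 0.072 (SE), adjusted p = 0.00138), Mirg at 39.1, 37.2 and 41.5 and 27.6, 20.96 and 25.6 (log2 fold change -0.67 ± 0.098 (SE), adjusted p = 0.00233), and Meg3 had a log2 fold change of -0.39 ± 0.090 (adjusted p = 0.0224). These genes neighbour each other and are not independent measurements. Dlk1, the paternally expressed gene of the domain, was not called (-0.13 ± 0.13). Mkrn3 fell (-0.48), and Ndn (0.26) and Peg12 (0.25), of the same paternally expressed cluster on chromosome 7, rose, so that this cluster did not move one way.

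REST is a repressor of neuronal genes in progenitors. Of 43 of its targets and corepressors, 7 fell and 2 rose, with a median of -0.16, while Rest itself stood at 0.037 ± 0.068. Vgf, a secreted neuropeptide precursor, rose from 0.134, 0.159 and 0.179 to 0.708, 1.13 and 1.20 CPM, 6.39-fold (log2 fold change 2.67 ± 0.30 (SE), adjusted p = 0.00053), and Scn3b, a sodium channel subunit, rose (1.496). Those that fell included Mapk8ip2, a scaffold of the JNK pathway (-0.57), Chga, a protein of secretory granules (-1.02), Celsr3, an adhesion receptor (-0.64), and Syn1, a protein of synaptic vesicles (-0.73). Of 50 ion channel and receptor genes 6 fell and 3 rose. Scn2a, a sodium channel and an autism-associated gene, was measured at 4.11, 3.27 and 2.99 CPM in Ctrl and 1.91, 1.84 and 1.89 in cKO (log2 fold change -0.88 ± 0.15 (SE), adjusted p = 0.00536). The glutamate receptor genes moved apart, Gria2 falling (-0.87) and Gria3 rising from 11.05, 11.2 and 9.32 to 17.7, 22.6 and 24.7 CPM (log2 fold change 1.04 ± 0.13 (SE), adjusted p = 0.00104). In the autism lists, 3 of 53 nuclear regulators fell, namely Chd8, Chd3 and Kat2b, a histone acetyltransferase (-0.44), and 0 rose, and of 50 synaptic and signalling genes 3 fell and 2 rose, among them Tsc2 (0.34) and Ppp2r5d (0.31), a pair of signalling genes that rose. In the autism lists these shares lay near those of all genes.

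Axon guidance and adhesion genes rose in 7 of 68 cases and fell in 0, with a median of 0.12. Plxna1, a semaphorin receptor, rose from 161, 203 and 185 to 279.9, 292 and 278.6 CPM (log2 fold change 0.63 ± 0.078 (SE), adjusted p = 0.000833). The others included Sema3e (0.84), Sema3a (0.41), Ephb2 (0.34), Plxna4 (0.60) and Slit3 (0.53), and the adhesion gene Cdh11 (0.29). Of the exons of Plxna1, 10.7% of the length overlaps Gm26811 on the other strand. The numbers higher and lower were 1 and 0 without cKO replicate 2, 3 and 0 without cKO replicate 3, 4 and 0 without Ctrl replicate 3, and 15 and 5 without Ctrl replicate 2. Mesenchyme also makes guidance molecules, and the part of its higher sums in these rises was not tested. Of 32 clustered protocadherins tested, with a median of 0.28, only Pcdhgb4 was called (0.52), and members of that cluster share their last exons, so that the counting may split reads between them.

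Ribosomal protein and splicing genes had more falls than rises. Rpl22l1, a paralogue of the ribosomal protein gene Rpl22, was measured at 99.8, 92.5 and 90.4 CPM in Ctrl and 54.9, 51.7 and 52.4 in cKO (log2 fold change -0.83 ± 0.061 (SE), adjusted p = 3.03e-05). Of 80 cytosolic ribosomal protein genes 8 fell and 2 rose, with a median of -0.10, among them Rps27 (-0.43) lower and Rplp0 (0.33) higher, a family with many processed pseudogenes that can share its reads. Of 50 ribosome assembly genes 5 rose and 3 fell, with Rrp12 (0.39) and Utp20 (0.34) higher and Taf1d, of the polymerase I machinery, lower (-0.53). Of 55 spliceosome, hnRNP and SR protein genes 7 fell and 2 rose. Srsf5 fell from 659.6, 600.4 and 650.5 to 469, 438 and 453 CPM (log2 fold change -0.49 ± 0.063 (SE), adjusted p = 0.00109) and Srsf6 from 771, 821 and 767 to 591, 553 and 529 (log2 fold change -0.50 ± 0.065 (SE), adjusted p = 0.00122), followed by Srsf7 (-0.32) and Srsf3 (-0.22), all SR proteins that bind exonic enhancers. Nova2, a neuronal splicing factor (0.33), and Prpf8, the core of the spliceosome (0.23), rose. Without cKO replicate 2 the numbers that fell were 2 for each of the ribosomal protein and splicing lists.

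Metabolic and stress lists had few calls. Of 72 nuclear genes of oxidative phosphorylation 3 fell and 2 rose, with Ndufb10 (0.33) and Uqcrc1 (0.23) higher and Atp5j (-0.29) lower. The 14 tested genes of mitochondrial DNA had a median log2 fold change of 0.93 and 0 were called, and cKO replicate 1 lay near the Ctrl libraries. mt-Co1, for example, stood at 3588, 2857 and 2901 CPM in Ctrl and 3933, 7077 and 6192 in cKO. DESeq2 called 11 of them, and edgeR called 10 without cKO replicate 1. Atf4, the effector of the integrated stress response, fell from 268, 274.8 and 269 to 229, 194 and 189.8 CPM (log2 fold change -0.40 ± 0.073 (SE), adjusted p = 0.00657), and among the 39 genes of its list the tRNA synthetase genes Wars (0.21) and Gars (0.22) rose. Hyou1 (0.46) and Pdia4 (0.49), chaperones of the endoplasmic reticulum, rose among 29 genes of the unfolded protein response and 0 fell. Of 39 glycolysis and hypoxia genes only Hk1 was called and rose (0.39), and of 19 immediate early genes 0 were called.

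Genes of antigen presentation moved apart. Tap1, the peptide transporter of the class I pathway and a known p53 target, rose from 1.85, 1.155 and 1.38 to 4.40, 5.09 and 5.02 CPM (log2 fold change 1.72 ± 0.17 (SE), adjusted p = 0.000231). The class I heavy chain gene H2-K1 fell from 42.7, 40.2 and 49.7 to 24.6, 24.6 and 31.9 CPM (log2 fold change -0.71 ± 0.12 (SE), adjusted p = 0.00545), as did H2-D1 (-0.30). Together with Irf3 (-0.27) and Ifit2 (-0.42), 4 of 26 interferon and innate response genes fell and 1 rose, and 1 fell without Ctrl replicate 3, cKO replicate 2 or cKO replicate 3. Class I genes are near-identical copies, and how reads were shared among them is uncertain. Outside the p53 list, 2 of 27 BCL2 family and caspase genes rose, Bcl2 (0.40) and Bak1 (0.24), and 2 fell, the death genes Bik (-1.04) and Hrk (-0.79), a pair of calls lost in each fit without Ctrl replicate 1 or 3 or any one of the cKO libraries. Bik stood at 1.07, 0.677 and 0.680 CPM in Ctrl and 0.489, 0.425 and 0.267 in cKO, and Hrk at 0.956, 0.796 and 1.07 and 0.489, 0.614 and 0.535.

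Markers of other cells in the dissected tissue were present in every library. Of 19 mesenchyme markers tested, out of 20, all had a log2 fold change above 0, from 0.10 to 0.68, with a median of 0.32, and 3 were called, namely Pdgfra (log2 fold change 0.41 ± 0.056 (SE), adjusted p = 0.00142), Col1a2 (0.40) and Col3a1 (0.44). Between 1 and 9 were called higher over the alternatives, with a median from 0.28 to 0.43. Twist1, a defining factor of mesenchyme, stood at 33.5, 52.7 and 39.2 CPM in Ctrl and 52.5, 47.3 and 48.7 in cKO and was not called. Of 7 pericyte markers tested, out of 9, 3 rose, Notch3, Pdgfrb (0.44) and Anpep (0.44), with summed levels of 212 to 246 CPM in Ctrl and 294 to 310.0 in cKO. Most of these sums was Notch3, also in the Notch list, with a mean of 170.3 CPM in Ctrl and 219.7 in cKO. Rgs5 was under 1 CPM in every library and not called, and Kcnj8 and Foxs1 did not pass the filter. Of 15 endothelial markers, Cdh5 (0.25) and Robo4 (0.36) rose, calls lost with length and GC offsets, with sums of 331 to 347 and 343 to 407 CPM. Erythroid markers summed to 3680.3 to 5796 CPM in Ctrl and 3437 to 5398 in cKO with 0 of 14 called, macrophage markers to 54.5 to 64.8 and 61.8 to 67.2 with Cx3cr1 higher (0.48) and Pf4 lower (-0.61), neural crest markers to 153 to 245 and 217 to 256 with 0 of 10 called, and surface ectoderm markers to 51.1 to 115 and 85.6 to 142. In that last list only Perp, also a p53 target, was called (1.02). What these cells contribute to the changes above was not tested.

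**Figure D4:**
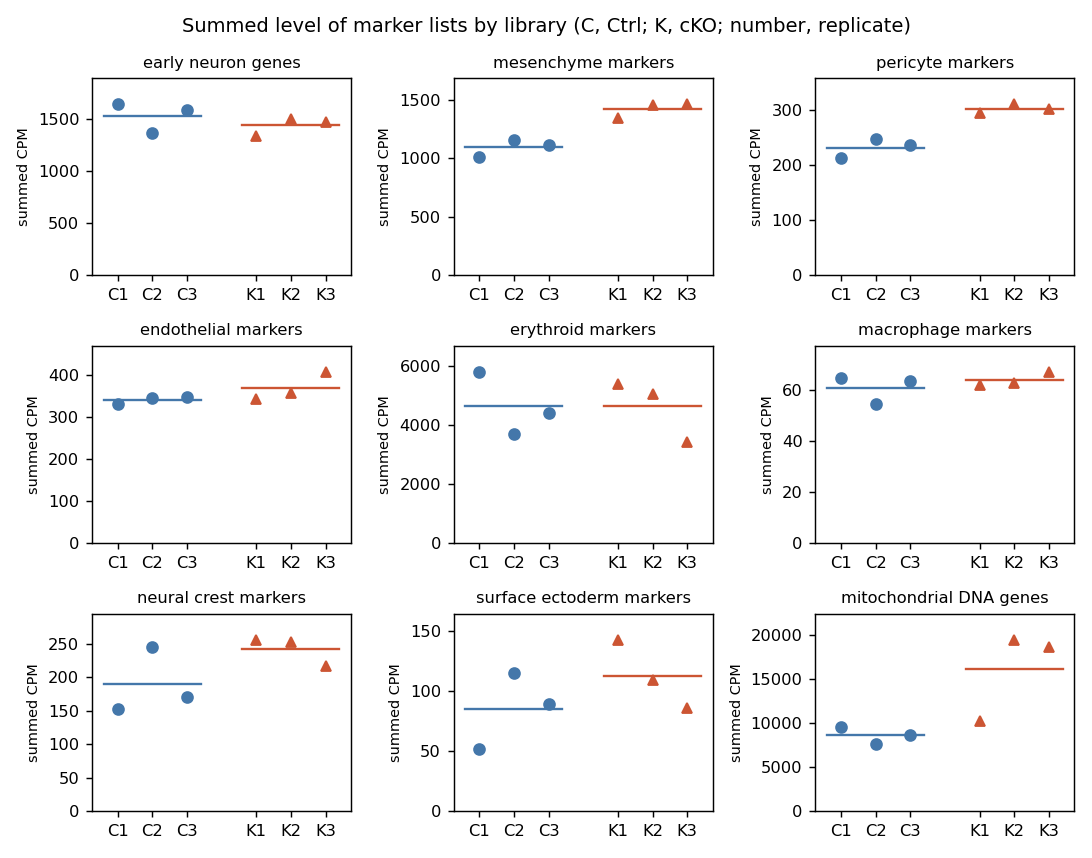
Summed CPM of 9 marker lists in each library, with Ctrl libraries as circles (C1 to C3), cKO libraries as triangles (K1 to K3), horizontal lines at the group means and axes from 0. Mesenchyme and pericyte sums do not overlap between the groups, early neuron sums do, and mitochondrial DNA is high in K2 and K3 only. The pericyte sum is mostly Notch3.

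The largest changes by fold included genes outside the lists. A gene outside the p53 list can still be a target of p53, which was not tested. Apart from Cdkn1a, Eda2r, Fas and Ano3, which the p53 list holds, the 10 largest rises held Svop, a protein of synaptic vesicles, at 0.936, 0.279 and 0.805 CPM in Ctrl and 4.32, 7.94 and 8.12 in cKO (9.998-fold, adjusted p = 0.00941), Inka2, an inhibitor of the kinase PAK4, at 3.94, 2.43 and 4.20 and 19.5, 30.2 and 28.8 (7.40-fold, adjusted p = 0.00175), Sec14l5 (2.92), the transcripts Gm37795 (3.37) and 1700003M07Rik (2.84), and Lif. The cytokine gene Lif rose from 0.248, 0.179 and 0.286 to 1.62, 1.75 and 1.46 CPM (log2 fold change 2.74 ± 0.23 (SE), adjusted p = 7.08e-05). The falls were of genes at low levels. Padi4, which converts histone arginine to citrulline, fell from 2.62, 1.33 and 2.24 to 0.573, 0.488 and 0.535 CPM (log2 fold change -1.95 ± 0.25 (SE), adjusted p = 0.00109) and Art5, an ADP-ribosyltransferase, from 1.85, 2.29 and 1.86 to 0.961, 0.709 and 0.638 (log2 fold change -1.38 ± 0.20 (SE), adjusted p = 0.00201). The others beside Pax8 and Gsx2 were Gm37599, Pnliprp2, 2900052N01Rik, Efcab6, Kcnc2 and Ermn, with log2 fold changes between -1.64 and -1.39. All but Ermn were under 1 CPM in every library, and all but Efcab6 lost their call without cKO replicate 2.

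The cKO effect at E10.5 was compared with the effect of the severe hypomorph genotype at E12.5, neo/- against WT neocortex, 3 libraries each, which has its own control libraries. The neo/- embryos carry 1 allele with a neo cassette that lowers Chd8 and 1 null allele, and no Cre is named. Stage, tissue taken, allele, Cre, pooling of embryos and sequencing differ together between the 2 effects and cannot be told apart. The E10.5 libraries came from pools and the E12.5 libraries from single embryos, and the fit gave them 1 shared estimate of the spread. In 1 fit of all 18 libraries, the effects differed for 1329 of 19565 genes (6.79%), 763 with a higher value in cKO (3.9%) and 566 with a lower one (2.89%). The number was 1796 without Ctrl replicate 2 and 533 without cKO replicate 2, and lay between 644 and 786 without Ctrl replicate 1, cKO replicate 3, WT replicate 3 or any one of the neo/- libraries. In that fit 3558 genes were called for cKO and 1647 for neo/-. The same 6 cKO and Ctrl libraries gave 2110 calls when fitted alone, so that the number called depends on the estimate of the spread and the genes tested. The 660 genes called for both were 18.5% of the former and 40.1% of the latter. Among all 19565 genes, 8.42% were called for neo/- and 3558 genes for cKO. Of the 660, which passed both thresholds, 612 had the same direction. Over all genes the Pearson correlation of the 2 effects was 0.147.

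Cholesterol and fatty acid synthesis genes stood apart in this comparison as well. Of 34 members, 14 had a lower effect in cKO than in neo/- and 0 a higher one, and the median effect of neo/- was 0.13, with 6 members called higher and 0 lower. Among all genes, 8.42% were called for neo/-, 4.13% higher and 4.29% lower. Msmo1 had an effect of 0.20 in neo/- and differed by -0.75 ± 0.099 (SE; adjusted p = 0.000193), Hmgcs1 had 0.085 and differed by -0.59 ± 0.090 (adjusted p = 0.00082), and Idi1 had 0.22 and differed by -0.62 ± 0.088 (adjusted p = 0.000412). Insig1 rose at E12.5 from 86.1, 85.7 and 83.9 to 111, 105 and 107 CPM and fell at E10.5, a difference of -0.66 ± 0.077 (adjusted p = 3.99e-05). Of 50 genes of DNA replication, 11 had a lower effect in cKO and 0 a higher one, and 11 were called higher in neo/-. For G2 and mitosis genes the numbers were 13 and 0 of 50, and for linker and variant histones 4 and 0 of 25. In p53 target genes the effect was higher in cKO for 27 of 39 and lower for 0, and in neo/- 6 were called higher, 1 lower. In the other direction, the autism-associated nuclear regulators had a higher effect in cKO in 9 of 53 cases and the synaptic and signalling genes in 9 of 52, with 14 and 17 members called lower in neo/-.

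**Figure D5:**
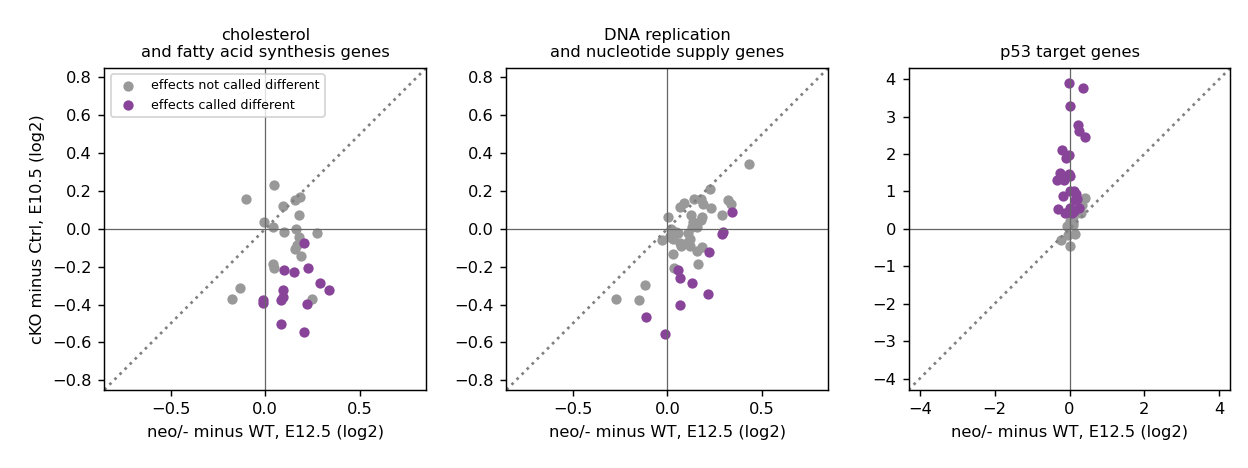
Log2 effect of cKO against Ctrl at E10.5 (vertical) and of neo/- against WT at E12.5 (horizontal) for the members of 3 gene lists in the joint fit, with genes whose effects were called different in purple and the dotted line marking equal effects. Most sterol genes lie below the line of equal effects and most p53 target genes above it.

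Other genes were called in both. Xrcc4 had a log2 fold change of 0.88 in cKO and 1.04 in neo/-, Cdkn1b of -0.61 and -0.39, Chd3 of -0.32 and -0.51, Pold2 of 0.34 and 0.43, Phf19 of -1.33 and -0.84 and Ccnd3 of 0.33 and 0.33, each called in both, and their effects were not called different (adjusted p from 0.0799 to 0.996). Chd8 itself stood at -0.50 and -0.67 (adjusted p of the difference = 0.172). A p that misses the threshold does not show that effects are equal. Zcwpw1 rose in both, by 0.72 and 1.56, and less in cKO (adjusted p = 0.00226). Sox1 fell in cKO and stood at 0.12 in neo/-, where it was not called (adjusted p = 0.378). Its effects differed by -0.75 (adjusted p = 0.000514).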

How the data were processed

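RNA-seq was performed on telencephalic vesicles of 3 Ctrl and 3 cKO pools at E10.5, as paired-end mRNA libraries on an Illumina HiSeq instrument. Per the labels and the study's methods, the authors checked reads with FastQC 0.11.2, trimmed them with Trim Galore 0.4.1, aligned them to GRCm38.p4 with TopHat2 2.1.0 and counted them per gene with featureCounts 1.5.0. The deposited values are counts of reads for each gene in each run of each library, with no normalization. The libraries mark strand, but the strand setting of the E10.5 counting is not given in the sources used here, so reads of genes that overlap on opposite strands may not be told apart. Beside Plxna1, named genes called with such overlaps include Sass6 (up to 24.5% of exon length), Bak1 (14.8%), Fancl (13.7%) and Atp5j (12.7%).

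Counts of the 2 runs of each library were summed. Genes were kept with filterByExpr (18435 of 46603), scaled with TMM and tested with edgeR 4.0.16 (quasi-likelihood, robust, R 4.3.3), and genes with a Benjamini-Hochberg adjusted p under 0.05 were called. DESeq2 1.42.0 was an alternative. CPM values use the TMM-scaled library sizes. The difference between the cKO and neo/- effects was tested as a contrast in 1 edgeR fit of all 18 libraries. On simulated counts with 200 genes changed 2-fold, edgeR recovered 96.5% in the cKO comparison, with 12 false calls among 18245 genes. The changed genes were drawn from those with more counts. This recovery therefore does not extend to genes at low counts or to smaller changes, such as most of those called here. All p-values are two-sided and come from fits across all genes.

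The gene lists (1768 of 1772 entries matched a gene of the table), the rules and the comparison were chosen with earlier results of these data known. Genes were named by rule: Chd8, the 10 largest rises and falls among called genes whose groups did not overlap and whose mean count was at least 10, up to 3 called members of each list with the smallest adjusted p, a fixed set of patterning and neuronal genes, and the 5 genes in each direction with the smallest adjusted p for the difference of effects. Further list members named to complete a count or a pathway, and genes beside Chd8, were chosen after their values were seen. A few genes that these rules name are not reported here. Alternatives were DESeq2, RLE and upper quartile scaling, no filter, a replicate block, each run alone, Xist level as a covariate (for pools of mixed sex) and each library left out, and offsets for gene length and GC content were added after the data were seen. Replicate numbers did not pair the libraries: the correlations of same-numbered deviations were -0.103, -0.0181 and 0.114. Promoter sequences are from RefSeq (GRCm38.p6).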

Additional observations from a re-analysis of the deposited data

Results flagged for a closer look

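The effects of cKO at E10.5 and of neo/- at E12.5 were tested against each other in 1 edgeR fit of all 18 libraries, and 1329 genes differed, with stage, tissue, allele, Cre, pooling of embryos and sequencing differing together. The values below are the cKO effect minus the neo/- effect on the log2 scale, for genes among the 5 with the smallest adjusted p in each direction.

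Higher in cKO were 3 genes of the p53 list, Eda2r, a receptor of the TNF family, by 3.41, Sesn2, a stress-induced regulator of mTOR, by 2.29 and Phlda3 by 2.06. Sesn2 stood at 19.2, 22.3 and 19.4 CPM in Ctrl and 74.6, 88.3 and 98.9 in cKO, against 14.4, 12.7 and 15.3 in WT and 12.4, 12.2 and 12.5 in neo/-. Slc19a2, a thiamine transporter, differed by 1.43, with an effect of 1.29 in cKO and -0.14 in neo/-. Wdfy1 differed by 1.20, with a fall in neo/- (-1.37), while its effect in cKO was -0.17 and not called.

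Lower in cKO were Tinf2, a telomere protein, by -0.65, Rpl22l1 by -0.88, Lyrm2 by -0.78 and Insig1 by -0.66. Tinf2, Rpl22l1 and Lyrm2 fell in cKO, with effects of -0.58, -0.84 and -0.95, and were not called in neo/- (0.072, 0.049 and -0.17). Insig1 moved in opposite directions, by -0.32 in cKO and 0.33 in neo/-.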

How the results depend on the processing

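With all libraries, the number of genes called was 1859 and 1796 in each sequencing run alone and lay between 2093 and 2722 under the scaling, filter, tool, covariate, block and offset alternatives, against 2110, and calls shared with these alternatives all had the same direction. Similar numbers did not mean the same genes. With length and GC offsets 2298 genes were called, and 1754 of the 2110 kept their call. Over 13324 genes with a mean above 100 counts, the log2 fold change had a Spearman correlation of 0.23 with GC content and 0.15 with exon length. Leaving out 1 library gave 538 to 2483 called genes, 290.0 to 1330 higher and 248 to 1153 lower, with the lowest numbers without cKO replicate 2, cKO replicate 3 and Ctrl replicate 3, and the cause was not tested. List members called were 95 to 331, against 241, and genes with a difference of effects 533 to 1796, against 1329. Chd8 was called in every alternative run. Of the 134 named genes called, 70 kept their call in all 15 alternatives, 63 lost it in some fit that left out a library, 58 of them without cKO replicate 2, and 10 lost it with length and GC offsets, among them Wnt7b, Ephb2, Smo, Pf4, Cxcr4, Crmp1, Robo4, Cdh5 and Pcdhgb4. DESeq2 gave no adjusted p for some genes at low counts, and these were not counted as lost.

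Genes that changed direction were not called with all libraries, and the cause was not tested. Lhx2 had a log2 fold change of -0.00065 in 1 sequencing run alone, -0.022 with Xist as a covariate, -0.091 with length and GC offsets, and -0.047 to 0.12 with 1 library left out. Eomes had -0.069 with Xist, -0.024 with offsets and -0.38 to 0.36 with 1 library left out, and Dcx -0.043 in the other run alone, -0.11 with Xist and -0.36 to 0.33. Neurog2 ranged from -0.53 to 0.18, Tbr1 from -0.021 to 0.96 and Tubb3 from -0.36 to 0.13 with 1 library left out.

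The replicate block gave 2598 called genes (1386 higher and 1212 lower), 324 list members called, 1214 genes with a difference of effects and -0.50 for Chd8, and 4 named genes lost their call, among them Gsx2. The numbers share no pairing by the check of their deviations. With 3 libraries per group, 5049 genes had an unadjusted p under 0.05 against the 2110 called, so that many small differences lie near the threshold.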

Other observations

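Some genes on the same part of chromosome 14 as Chd8 were among those called, chosen here after their values were seen. The share called in this region was not counted against the 11.4% of all genes tested, and a local effect was not tested. Mettl3, the catalytic subunit of the enzyme that methylates adenosine in mRNA, fell from 68.3, 56.5 and 60.2 to 49.0, 43.9 and 41.1 CPM (log2 fold change -0.47 ± 0.085 (SE), adjusted p = 0.00748), and Mettl17, a mitochondrial ribosome factor, from 41.0, 39.4 and 38.4 to 27.5, 24.9 and 24.5 CPM (log2 fold change -0.63 ± 0.072 (SE), adjusted p = 0.000548). Tox4, which lies between Chd8 and Mettl3, rose (0.25, adjusted p = 0.0171), and Supt16, on the other side of Chd8, was not called (0.083, adjusted p = 0.523).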
